A study of Mus musculus with 9 samples.

Results

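The MHC class II genes were examined by RNA-seq of colonic mucosa from 15-wk-old mice, 5 of them ApcMin/+ and 4 of them ApcMin/+; p16cis/cis. The 10 genes, chosen by their symbols, were H2-Aa, H2-Ab1, H2-Eb1, Cd74, Ciita, H2-DMa, H2-DMb1, H2-DMb2, H2-Oa and H2-Ob, out of 54146 genes listed. All mice were C57BL/6J and carried ApcMin, a germline Apc mutation that initiates intestinal adenomas and that the controls therefore share. The ApcMin/+; p16cis/cis mice also carried, at both p16 alleles, a knocked-in element that promotes DNA methylation of the p16 promoter. It is a germline allele, not restricted to the colon. The ApcMin/+ group held 2 females and 3 males, and the ApcMin/+; p16cis/cis group held 3 females and 1 male. The comparison asks which genes differ in level when p16 epimutation is added to the Apc mutation. The methods describe RNA from colonic crypts, while the labels say colonic mucosa, and no cell type was sorted.

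Class II molecules are cell surface dimers of an alpha and a beta chain that present peptides, mostly from engulfed proteins, to CD4+ T cells. The invariant chain, Cd74, escorts the dimers to endosomes, where the H2-DM dimer helps exchange the last fragment of Cd74 for a peptide, and the H2-O dimer restrains H2-DM. The genes are expressed by B cells, dendritic cells and macrophages, and by other cells, intestinal epithelium included, after IFN-γ induces the coactivator Ciita. In bulk tissue, fewer cells of a type and less RNA per cell cannot be told apart.

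Libraries held 13523500 to 17885918 reads on genes, and all 10 class II genes reached the minimum for testing, a normalized count of 10 in 4 or more mice. H2-DMb2, H2-Oa and H2-Ob reached it mostly through ApcMin/+ mice. In the other genotype only replicate 3 held 10 or more of these genes. Mitochondrial genes took 8.74% to 15.6% of the reads in ApcMin/+ mice against 19.3% to 29.8% in the other genotype, without overlap, so this share and the genotype cannot be told apart. Cdkn2a, the gene that encodes p16, had a count of 0 in all 9 libraries, so the labels could not be checked by it. The tissue label was checked with 9 epithelial markers such as Epcam and Krt8, all of which were tested. Their summed normalized count was at least 268559 in every mouse, against at most 2328 for 6 general leukocyte markers. ApcMin/+ replicate 4 stood apart in immune content. Its Ptprc, the pan-leukocyte antigen CD45, was 30.5, against 99.8 to 750 in the other 8 mice, and results that rest on this mouse are given with and without it.

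The class II genes share a promoter arrangement known as the SXY module, in which RFX proteins bind the X box, NF-Y binds the Y box and Ciita docks on the assembled proteins. RefSeq promoter windows of 250 bases before to 50 after the start (GRCm38.p6) were matched by symbol for 7 of the 10 genes. No window was matched for H2-Ab1, Cd74 and Ciita. A search for AAC, letters of the X box, followed 28 to 31 bases on by ATTGG, the Y box core, found a match on the strand of the gene in 6 of the 7 (all but H2-DMa). The search was made on both strands, and its spacing was chosen after the sequences had been seen. The same letters were in 817 of all 32851 RefSeq windows (2.49%). ATTGG alone was in 7 of the 7 and in 37.4% of all windows. The matched stretches are shown because the same letters recur in genes whose levels are compared here, with AAC and ATTGG in capitals, each 5′ to 3′ on the gene's strand.
H2-Aa (minus strand, chr17:34287862-34287911): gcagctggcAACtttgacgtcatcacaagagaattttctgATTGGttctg
H2-Eb1 (plus strand, chr17:34305769-34305817): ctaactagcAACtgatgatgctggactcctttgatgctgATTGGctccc
H2-DMb1 (plus strand, chr17:34153090-34153139): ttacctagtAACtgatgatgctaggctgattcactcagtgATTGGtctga
H2-DMb2 (plus strand, chr17:34145119-34145168): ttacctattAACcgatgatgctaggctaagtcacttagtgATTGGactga
H2-Oa (plus strand, chr17:34092296-34092345): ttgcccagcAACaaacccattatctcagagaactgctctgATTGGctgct
H2-Ob (plus strand, chr17:34238811-34238857): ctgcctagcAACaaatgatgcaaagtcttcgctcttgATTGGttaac
The distance from AAC to ATTGG was 31 bases in H2-Aa, H2-DMb1, H2-DMb2 and H2-Oa, 30 in H2-Eb1 and 28 in H2-Ob. The longer run CTGATTGG was found in H2-Aa, H2-Eb1 and H2-Oa, 3 of the 7, against 4.10% of all windows. A match is a description of letters and not a measured binding site.

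Across the whole set, no class II gene differed between the genotypes by the main test, while the level of each gene differed several-fold between mice of the same genotype. Genotypes were compared with limma on log2(normalized count + 1) over 14410 genes, and fold changes on this scale understate the change of genes with low counts. None of the 10 genes reached a Benjamini-Hochberg adjusted p-value under 0.05, against 16.9% of all genes tested. With a fold change over 2 also required, the count was again 0, against 3.48% of all genes. The genotypes overlapped for all 10 genes, while they did not overlap for 16.2% of all genes. At an unadjusted p-value under 0.05, 1 class II gene (H2-DMb2) passed in limma. Count tests on the recovered reads called 0 of the 10 by edgeR, where 3 passed unadjusted, and 1 by DESeq2, which was H2-DMb2. The values were higher in ApcMin/+; p16cis/cis mice for 4 genes and lower for 6, with a median log2 fold change of -0.34, against -0.0041 over all genes tested. This median depended on single mice, at -0.79 without ApcMin/+; p16cis/cis replicate 3, -0.78 without ApcMin/+ replicate 4, -0.07 without ApcMin/+ replicate 2 and 0.09 without ApcMin/+; p16cis/cis replicate 4.

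**Figure D1:**
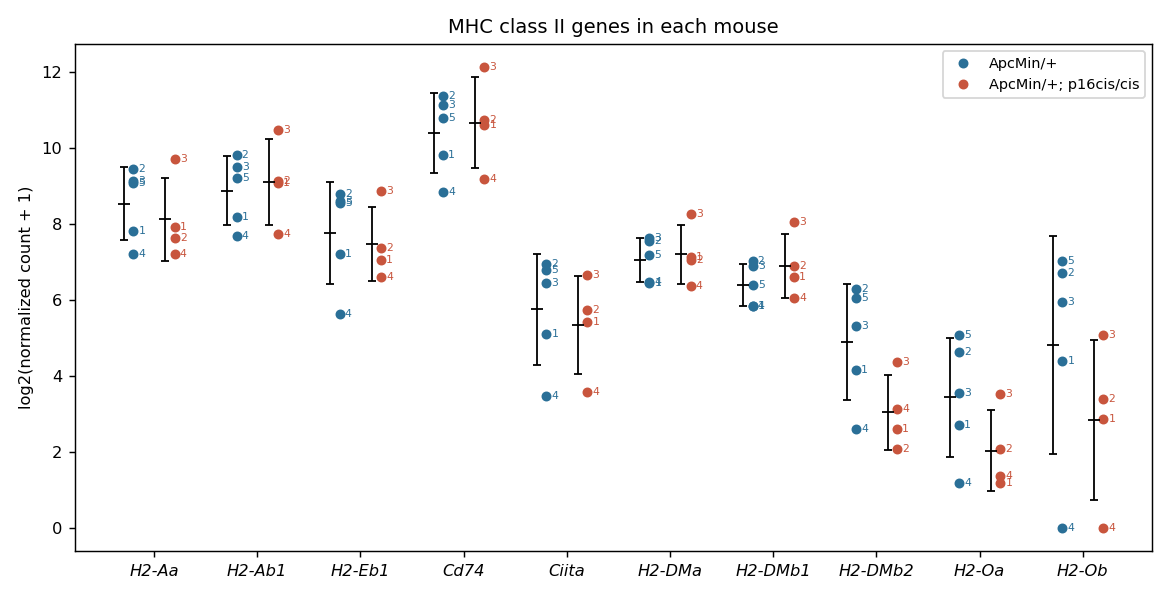
Level of each class II gene in each mouse as log2(normalized count + 1), with points numbered by replicate and black bars giving the mean ± SD of the genotype (n = 5 and n = 4). ApcMin/+; p16cis/cis replicate 3 is the highest of its genotype for all 10 genes and ApcMin/+ replicate 4 lies at or near the bottom. The genotypes overlap for all 10 genes.

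The classical chains form the peptide-binding dimers, and H2-Aa encodes the alpha chain of I-A. H2-Aa (ENSMUSG00000036594.14) lies on chromosome 17 of GRCm38 from 34282744 to 34287823. Its normalized counts were 227, 696, 564, 146 and 539 in ApcMin/+ replicates 1 to 5 and 242, 199, 832 and 147 in ApcMin/+; p16cis/cis replicates 1 to 4. The highest and lowest mice thus differed 5.69-fold, and each genotype held both low and high mice. Between the genotypes H2-Aa had a log2 fold change of -0.42 ± 0.53 (SE), with an adjusted p of 0.625 in limma.

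H2-Ab1 (ENSMUSG00000073421.5, chromosome 17 from 34257689 to 34269419) encodes the beta chain that pairs with H2-Aa. Its normalized counts were 290, 903, 723, 206 and 593 in ApcMin/+ mice and 546, 561, 1420 and 211 in ApcMin/+; p16cis/cis mice. The same mice were at the top and the bottom as for H2-Aa, but replicates 1 and 2 of the ApcMin/+; p16cis/cis mice stood closer to the middle. The log2 fold change was 0.23 ± 0.52 (SE), with an adjusted p of 0.799 in limma.

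H2-Eb1 (ENSMUSG00000060586.10, chromosome 17 from 34305867 to 34316674) encodes the beta chain of I-E. The normalized counts of H2-Eb1 were 148, 445, 387, 48.3 and 376 in ApcMin/+ mice and 133, 166, 467 and 97.1 in ApcMin/+; p16cis/cis mice. H2-Eb1 differed by a log2 fold change of -0.28 ± 0.63 (SE), with an adjusted p of 0.794 in limma. In C57BL/6 mice the alpha chain partner of H2-Eb1 is a pseudogene, H2-Ea-ps, and H2-Ea-ps was listed at 0 in all 9 mice. H2-Eb1 RNA was thus measured in every mouse without RNA counted on its partner.

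Cd74 (ENSMUSG00000024610.14, chromosome 18 from 60803848 to 60812652) was the most abundant gene of the set per length. Its normalized count per kb of exon was 957 ± 545 (SD, n = 5) in ApcMin/+ mice, against 211 ± 114 for H2-Ab1, the next in order. In the other genotype these were 1246 ± 1002 and 267 ± 201 (SD, n = 4). In ApcMin/+ mice the order then ran H2-Eb1 at 145 ± 88.7, H2-Aa at 114 ± 62.1, H2-DMb1 at 52.6 ± 20.1 and H2-DMa at 40.7 ± 15.3 per kb (SD, n = 5). H2-DMb2 at 23.4 ± 17.8, H2-Ob at 11.7 ± 10.2, H2-Oa at 10.6 ± 9.36 and Ciita at 7.62 ± 5.12 per kb followed. Neighbors in this order other than Cd74 and H2-Ab1 differed by less than the SD between ApcMin/+ mice of the more variable gene. All genes were measured in the same mice, however, and most neighbors kept this order within every ApcMin/+ mouse. The exceptions were H2-Eb1 and H2-Aa, H2-Ob and H2-Oa, and H2-Oa and Ciita. In ApcMin/+; p16cis/cis mice Ciita, at 5.36 ± 3.84 per kb (SD, n = 4), stood beside H2-DMb2 at 5.10 ± 4.20 and above H2-Oa at 2.94 ± 3.08 and H2-Ob at 2.27 ± 2.68. The normalized counts of Cd74 itself, not divided by length, were 897, 2649, 2241, 455 and 1788 in ApcMin/+ mice and 1575, 1713, 4501 and 581 in ApcMin/+; p16cis/cis mice. Replicate 3 of the ApcMin/+; p16cis/cis mice held 9.89 times the level of ApcMin/+ replicate 4. The log2 fold change of Cd74 was 0.28 ± 0.58 (SE), with an adjusted p of 0.772 in limma.

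Ciita (ENSMUSG00000022504.10, chromosome 16 from 10480059 to 10528418), the coactivator that class II transcription depends on, was present at low levels. Its normalized counts were 33.5, 123, 86.8, 10.2 and 110 in ApcMin/+ mice and 41.7, 52.6, 99.2 and 11.0 in ApcMin/+; p16cis/cis mice. Replicate 4 of each genotype was the lowest, at 8 and 7 reads, and the genotypes covered the same range. Ciita had a log2 fold change of -0.41 ± 0.74 (SE), with an adjusted p of 0.735 in limma. Exons of Ciita overlap those of Dexi on the other strand, and whether counting used the strand was not given in the sources used here.

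The H2-DM dimer, the peptide editor, consists of an alpha chain from H2-DMa and a beta chain from H2-DMb1 or its neighbor H2-DMb2. H2-DMa (ENSMUSG00000037649.9, chromosome 17 from 34119541 to 34139101) had the narrowest range of the set, with a highest mouse 3.74 times the lowest. Its normalized counts were 85.9, 186, 198, 87.7 and 144 in ApcMin/+ mice and 139, 132, 305 and 81.5 in ApcMin/+; p16cis/cis mice, a log2 fold change of 0.15 ± 0.37 (SE) with an adjusted p of 0.817 in limma. H2-DMa exons overlap Brd2 on the other strand.

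H2-DMb1 (ENSMUSG00000079547.3, chromosome 17 from 34153072 to 34160230) showed the largest positive difference among the 10 genes. Its normalized counts were 56.9, 129, 117, 55.9 and 82.9 in ApcMin/+ mice and 96.0, 118, 264 and 65.8 in ApcMin/+; p16cis/cis mice. Only replicate 3 of the latter lay above the ApcMin/+ range. For H2-DMb1 the log2 fold change was 0.50 ± 0.38 (SE), with an adjusted p of 0.391 in limma.

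H2-DMb2 (ENSMUSG00000037548.14, chromosome 17 from 34143307 to 34151555) had the lowest adjusted p of the set. The normalized counts of H2-DMb2 were 16.7, 78.0, 39.0, 5.08 and 65.8 in ApcMin/+ mice and 5.05, 3.19, 19.5 and 7.83 in ApcMin/+; p16cis/cis mice, which corresponds to 4 to 82 and 2 to 13 reads. All ApcMin/+; p16cis/cis mice lay below the upper 3 ApcMin/+ mice, but ApcMin/+ replicate 4 was as low as they were. The log2 fold change was -1.85 ± 0.73 (SE), with an adjusted p of 0.101 in limma and an exact permutation p of 0.0794 (two-sided). DESeq2 on the recovered reads gave -2.21 with an adjusted p of 0.0142, where 11.5% of all genes tested were lower at that threshold, and edgeR gave an adjusted p of 0.0584.

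The H2-O dimer, the inhibitor of H2-DM that is best known from B cells, had the lowest level per length of the dimers. H2-Oa (ENSMUSG00000024334.8, chromosome 17 from 34092340 to 34095234), its alpha chain, had normalized counts of 5.58, 23.8, 10.7, 1.27 and 32.9 in ApcMin/+ mice and 1.26, 3.19, 10.5 and 1.57 in ApcMin/+; p16cis/cis mice. In 3 mice this was a single read, so that H2-Oa was near the detection limit there. The log2 fold change was -1.40 ± 0.80 (SE), with an adjusted p of 0.249 in limma. H2-Oa exons overlap an antisense gene, BC051537.

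H2-Ob (ENSMUSG00000041538.15, chromosome 17 from 34238903 to 34254414), the beta chain, had normalized counts of 20.1, 104, 60.5, 0 and 131 in ApcMin/+ mice and 6.31, 9.57, 33.1 and 0 in ApcMin/+; p16cis/cis mice. It was the only gene of the set with a count of 0, found in replicate 4 of both genotypes, which allows a normalized count of up to 3.81 in ApcMin/+ replicate 4 and 4.70 in ApcMin/+; p16cis/cis replicate 4 (3 reads, counting error only). H2-Ob had a log2 fold change of -1.98 ± 1.35 (SE), with an adjusted p of 0.337 in limma.

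The calls of 3 genes, H2-DMb2, H2-Oa and H2-Ob, depended on ApcMin/+ replicate 4. Without this mouse, each was lower in ApcMin/+; p16cis/cis mice at the adjusted threshold in limma, where 12.5% of all genes tested were lower. H2-DMb2 was then at a log2 fold change of -2.42 ± 0.56 (SE), with an adjusted p of 0.0106. That of H2-Oa was -1.96 ± 0.66 (SE), with an adjusted p of 0.0489. That of H2-Ob was -3.18 ± 0.90 (SE), with an adjusted p of 0.0240. The other 7 genes had adjusted p-values of at least 0.199 without the mouse, although the log2 fold change of Ciita moved from -0.41 to -0.98 and that of H2-Eb1 from -0.28 to -0.81, and H2-Ab1 and Cd74 changed sign to -0.07 and -0.11. Without ApcMin/+; p16cis/cis replicate 4 instead, where H2-Ob was also at 0, none of the 3 genes passed. H2-DMb2 was then at -1.88 (limma adjusted p = 0.177), H2-Oa at -1.18 (limma adjusted p = 0.432) and H2-Ob at -1.03 (limma adjusted p = 0.673). ApcMin/+ replicate 4 had been singled out for its low immune content in these same data. Its removal widened the differences of H2-DMb2, H2-Oa and H2-Ob. The p-values of these genes without that mouse are therefore no independent support for a difference. ApcMin/+ replicate 4 was no exception in depth, with 15766867 reads on genes, and its values were retained in the main test.

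**Figure D2:**
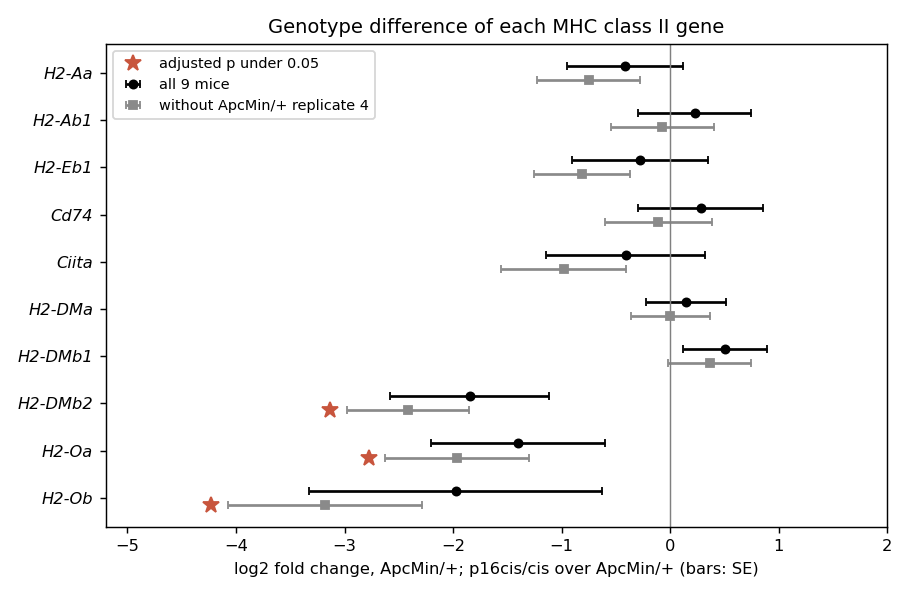
Log2 fold change of each class II gene between the genotypes (ApcMin/+; p16cis/cis over ApcMin/+, limma, bars are the SE) in all 9 mice (circles) and without ApcMin/+ replicate 4 (squares). Stars mark an adjusted p under 0.05, reached by H2-DMb2, H2-Oa and H2-Ob without that mouse and by no gene in all 9 mice. That mouse was singled out for its low immune content in these same data, so the stars are no independent support for a difference.

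Marker genes of B cells and other cell types were compared in the same mice. Of 10 B cell markers, all tested, 1 was lower in ApcMin/+; p16cis/cis mice at the adjusted threshold, where 8.75% of all genes tested were lower. This was Cr2, a complement receptor, at -3.42 ± 0.96 (SE, log2) with an adjusted p of 0.0308 in limma. Its normalized counts were 16.7, 99.8, 39.0, 2.54 and 89.7 in ApcMin/+ mice and 1.26, 1.60, 9.02 and 0 in ApcMin/+; p16cis/cis mice. Cr2 thus reached the minimum for testing through ApcMin/+ mice alone, so its call is no independent support for a difference. The summed normalized count of the 10 markers was 22.9 to 1192 in ApcMin/+ mice and 26.6 to 328 in ApcMin/+; p16cis/cis mice, and no marker was at 0 in all mice. The mean log2 level of the list differed by -1.68 between the genotypes (exact permutation test, two-sided, p = 0.270, adjusted p = 0.360 over 8 marker lists). Without ApcMin/+ replicate 4 it differed by -2.61. Without the same mouse, the mean log2 level of 6 other marker lists was also lower in ApcMin/+; p16cis/cis mice. That mouse was singled out for its low immune content in these same data. Its removal therefore widens these differences, and no p-value is given for them. The differences were -2.24 for plasma cells, -1.97 for stroma and vessels, -1.58 for dendritic cells, -1.29 for leukocytes, -0.77 for T cells and innate lymphoid cells and -0.59 for macrophages. Epithelial markers differed by -0.21 without that mouse. With all 9 mice the differences were -1.84 for plasma cells, -1.39 for stroma and vessels, -1.01 for dendritic cells and -0.65 for leukocytes. They were -0.29 for T cells and innate lymphoid cells, -0.39 for macrophages and -0.27 for epithelial markers. None of the 8 lists then had an adjusted p under 0.05 (exact permutation test), the lowest being 0.254 for plasma cells. The tested macrophage markers went both ways with all 9 mice, and none passed the test. Cd68 and Cd14 were higher in ApcMin/+; p16cis/cis mice, at log2 fold changes of 0.85 and 0.38. Csf1r, C1qa, C1qb, C1qc and Mrc1 were lower. The part of these cell types in the genotype values of H2-DMb2, H2-Oa and H2-Ob was not tested.

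H2-Ob followed the B cell markers closely from mouse to mouse. Over the 9 mice, the log2 level of H2-Ob correlated with the mean log2 level of the 10 B cell markers at Pearson r = 0.990 (exact permutation test, p = 1.1e-05, adjusted p = 0.00033 over 30 relations) and Spearman rho = 0.979 (exact permutation test, p = 7.7e-05). The r was 0.989 with the genotype means subtracted and 0.987 without the 2 mice farthest from the median, replicate 4 of each genotype. H2-Oa had r = 0.939 (exact permutation test, adjusted p = 0.0019) and rho = 0.933, and H2-DMb2 had r = 0.875 (exact permutation test, adjusted p = 0.0076) and rho = 0.850. Without the 2 farthest mice these were r = 0.956 and r = 0.967. Ciita had r = 0.945 (exact permutation test, adjusted p = 0.0019) and H2-Eb1 had r = 0.919 (exact permutation test, adjusted p = 0.0020), with r = 0.858 (exact permutation test, p = 0.0290) and r = 0.839 (exact permutation test, p = 0.05) without those mice. All points of these correlations share the library and its depth. With the mean of each sex subtracted, r was 0.993 for H2-Ob, 0.952 for H2-Oa and 0.875 for H2-DMb2, and no r is given within a sex, since the sexes held 5 and 4 mice.

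Relations of the other class II genes with the B cell markers changed with the mice and the adjustment. Cd74 had r = 0.770 (exact permutation test, adjusted p = 0.0278) and H2-Ab1 had r = 0.751 (exact permutation test, adjusted p = 0.0328), and rho was 0.833 for both. Without the 2 farthest mice r was 0.368 and 0.374, so that both relations rest on those mice, while with the genotype means subtracted r was 0.928 and 0.898. For H2-DMb1 r was 0.481 (exact permutation test, adjusted p = 0.203) and for H2-DMa it was 0.666 (exact permutation test, adjusted p = 0.0657). With the genotype means subtracted these were 0.770 (exact permutation test, p = 0.0144) and 0.801 (exact permutation test, p = 0.0083), and without the 2 mice 0.095 and 0.357. H2-Aa had r = 0.882 (exact permutation test, adjusted p = 0.0066) and r = 0.783 without the 2 mice (exact permutation test, p = 0.0613). Differences between these correlations were not tested.

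**Figure D3:**
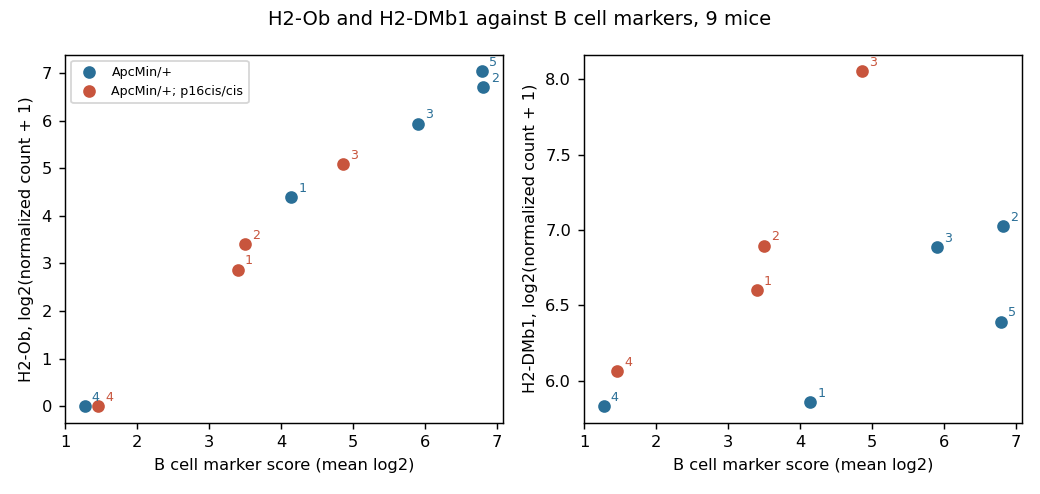
H2-Ob (left) and H2-DMb1 (right) against the mean log2 level of 10 B cell markers, all as log2(normalized count + 1), 1 point per mouse, numbered by replicate. H2-Ob lies along a line with the B cell markers (r = 0.990), and H2-DMb1 has r = 0.481 over all mice and r = 0.770 with the genotype means subtracted.

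The class II genes varied together over the mice. ApcMin/+; p16cis/cis replicate 3 was the highest of all 9 mice for H2-Aa, H2-Ab1, H2-Eb1, Cd74, H2-DMa and H2-DMb1, whereas an ApcMin/+ mouse was the highest for Ciita, H2-DMb2, H2-Oa and H2-Ob. Among the 45 pairs of genes, r of the log2 levels ranged from 0.26 to 0.99 with a median of 0.86. The closest pair was H2-Ab1 and Cd74 (r = 0.994). The loosest was H2-DMb1 and H2-DMb2 (r = 0.259, and 0.679 with the genotype means subtracted), although they lie side by side and both encode beta chains of H2-DM. Ciita correlated with each of the other 9 genes, from r = 0.704 for H2-DMb2 (exact permutation test, adjusted p = 0.0499) to r = 0.957 for H2-Ob (exact permutation test, adjusted p = 0.0020). Without the 2 mice farthest in Ciita, 3 of the 9 relations no longer passed unadjusted, with H2-DMb1 at r = 0.561 (exact permutation test, p = 0.200), H2-DMb2 at r = 0.755 (exact permutation test, p = 0.0641) and H2-DMa at r = 0.734 (exact permutation test, p = 0.0508). The other 6 had r of at least 0.765 with unadjusted p under 0.05.

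Ratios within pairs of chains do not depend on the scaling between mice, and that of the I-A chains did not overlap between the genotypes. Of the reads on H2-Aa and H2-Ab1, the 2 chains of I-A, H2-Aa took 43.8%, 43.5%, 43.8%, 41.5% and 47.6% in ApcMin/+ mice and 30.8%, 26.2%, 37.0% and 41.0% in ApcMin/+; p16cis/cis mice. The ranges of the genotypes were apart, although the nearest mice differed by less than their counting error (95% Wilson intervals 35.9% to 47.4% and 34.9% to 47.5%). The mean was 44.1% ± 2.22 (SD, n = 5) against 33.7% ± 6.57 (SD, n = 4). The exact permutation p was 0.00794 (two-sided), the smallest that 5 mice against 4 allow, and 0.0238 adjusted over the 3 shares tested. This share was chosen after the levels of its genes had been seen, so the p-value describes the values and is not an independent test. Among single genes tested, 16.2% did not overlap between the genotypes, and how often ratios of gene pairs do so was not computed. The adjustment leaves out the share of H2-DMb2, given below without a test. With any 1 mouse left out, the difference stayed between -7.81 and -12.8 percentage points.

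For H2-DM, the share of H2-DMa in the reads on H2-DMa and H2-DMb1 was 61.3% ± 1.85 (SD, n = 5) in ApcMin/+ mice against 55.2% ± 2.81 (SD, n = 4) with p16cis/cis (two-sided exact permutation p = 0.0159, adjusted p = 0.0238). The values were 60.2%, 59.0%, 62.8%, 61.1% and 63.5% against 59.1%, 52.9%, 53.6% and 55.3%, so that 1 mouse of each genotype touched the other's range. Leaving out ApcMin/+ replicate 1, 3, 4 or 5 gave an exact permutation p of 0.0571. For H2-O, H2-Oa took 15.1% to 21.7% of the reads on H2-Oa and H2-Ob in 4 ApcMin/+ mice and 16.7% to 25% in 3 ApcMin/+; p16cis/cis mice. In replicate 4 of each genotype the share was 100%, resting on 1 read (exact permutation test over all mice, p = 0.540). The 3 shares were chosen after the levels had been seen. Mitochondrial share and genotype cannot be told apart in these ratios either.

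The balance of the 2 H2-DM beta chains, chosen for its values and given without a test, differed most. H2-DMb2 took 22.7%, 37.6%, 25%, 8.33% and 44.3% of the reads on H2-DMb1 and H2-DMb2 in ApcMin/+ mice and 5%, 2.63%, 6.88% and 10.6% in ApcMin/+; p16cis/cis mice. Only ApcMin/+ replicate 4, at 4 of 48 reads, fell within the range of the other genotype. The means were 27.6% ± 14.0 (SD, n = 5) and 6.29% ± 3.38 (SD, n = 4). The 2 genes are near copies in part, with 22.7% of the 50-base windows of H2-DMb1 transcripts also found in H2-DMb2, so the division of some reads between them rests on the estimate by RSEM and is uncertain.

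**Figure D4:**
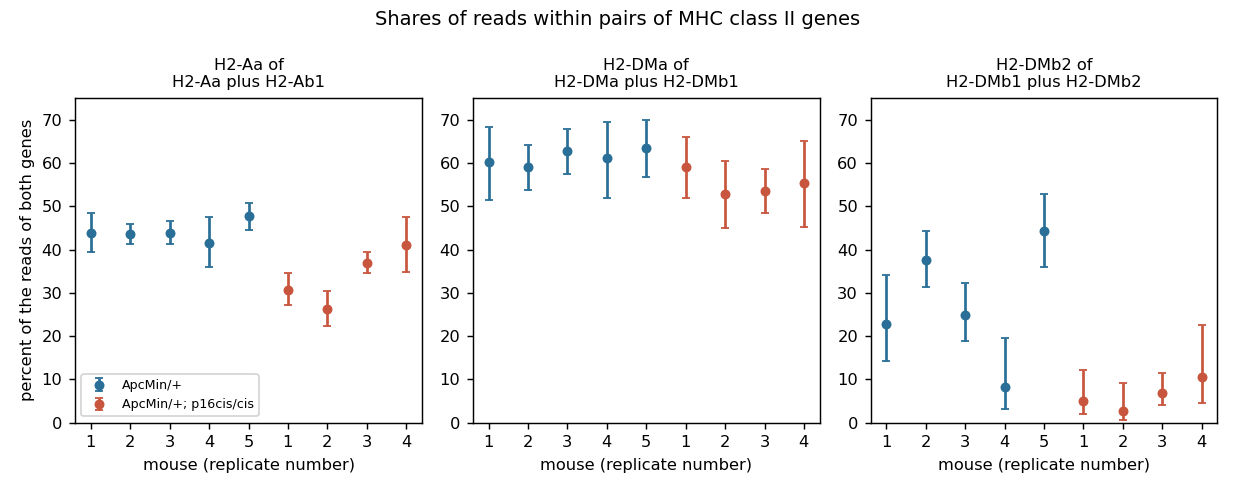
Percent of reads taken by the first gene of each pair in each mouse, with 95% Wilson intervals that cover counting error only (H2-Aa of H2-Aa plus H2-Ab1, H2-DMa of H2-DMa plus H2-DMb1, H2-DMb2 of both beta chains). All ApcMin/+; p16cis/cis mice lie at or below 41.0% for H2-Aa, and all ApcMin/+ mice lie at or above 41.5%.

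Other genes of the class II pathway were measured as a list of 19, of which 16 were tested. At the adjusted threshold 2 were higher and 4 were lower in ApcMin/+; p16cis/cis mice, against 8.14% and 8.75% of all genes tested, with a median log2 fold change of -0.26 over the list. Rfxank, a subunit of the RFX complex on the X box, was higher, with a range of 481 to 750 against 350 to 437 in ApcMin/+ mice (log2 fold change 0.63 ± 0.14 SE, limma adjusted p = 0.0117). The other RFX subunits Rfx5 and Rfxap had log2 fold changes of -0.21 and 0.22 that did not pass the test. Nfyb, a subunit of NF-Y on the Y box, fell by 0.43 ± 0.11 on the log2 scale (SE, limma adjusted p = 0.0260), while Nfya and Nfyc, its partners, did not pass the test at -0.0076 and -0.06.

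In the endosome, Ifi30, a thiol reductase that opens disulfide bonds of antigens, rose by 0.38 ± 0.11 on the log2 scale (SE, limma adjusted p = 0.0363). Sppl2a, the protease that cleaves the membrane stub of Cd74, fell by 0.51 ± 0.11 (SE, limma adjusted p = 0.0132). March8, a ubiquitin ligase that acts on class II molecules, fell by 0.56 ± 0.10 (SE, limma adjusted p = 0.0052), and Cd83, which opposes such ubiquitination, fell by 0.67 ± 0.18 (SE, limma adjusted p = 0.0277). The ranges of the genotypes were apart for each of these 4 genes, which had passed the test, as they were for 16.2% of all genes tested. The cathepsins that degrade the invariant chain did not pass, with Ctss at -0.35 (limma adjusted p = 0.0693) and Ctsl at -0.59 (limma adjusted p = 0.0558). Below the minimum for testing were March1 and H2-Eb2, a second I-E beta gene. H2-Eb2 was at 3.35, 30.4, 24.4, 0 and 27.2 in ApcMin/+ mice and at 1.26, 0, 3.01 and 1.57 in ApcMin/+; p16cis/cis mice.

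Of 8 genes from IFN-γ to Ciita, 7 were tested and none was called in either direction by limma, with no gene under an adjusted p of 0.05. Ifng itself was at 0 to 6.38 and not tested. Socs1, the feedback inhibitor of this pathway, was at 17.8 to 85.1 in ApcMin/+ mice and at 98.5 to 160 with p16cis/cis, without overlap, but missed the threshold (limma adjusted p = 0.0996). Jak1, a kinase of the IFN-γ receptor, also did not overlap and also missed it, in the opposite direction, at 2058 to 2590 against 1665 to 1946 (limma adjusted p = 0.0748). The genotypes did not overlap for 16.2% of all genes tested, and Socs1 and Jak1 were named after their values were seen. Of 6 transcription factors known to act on Ciita, 5 were tested, and Prdm1, a repressor of Ciita in plasma cells, was lower, 1 of 5 against 8.75% of all genes tested. The range of Prdm1 was 51.3 to 97.9 in ApcMin/+ mice and 19.1 to 43.9 in ApcMin/+; p16cis/cis mice (log2 fold change -1.36 ± 0.30 SE, limma adjusted p = 0.0121). Of 6 costimulatory or immune checkpoint molecules only Icosl and Cd274, which encodes the checkpoint ligand PD-L1, were tested, and neither passed the test.

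Markers of dendritic cells and macrophages, which also carry class II molecules, were mostly at low counts. Of 9 dendritic cell markers 2 were tested and 0 passed, Clec9a was listed at 0 in all mice, and Xcr1 was at most 2.54. Of 10 macrophage markers 7 were tested and 0 passed, with summed normalized counts of 999 to 1888 in ApcMin/+ mice and 1535 to 1575 with p16cis/cis, most of it Cd14, and Adgre1, which encodes F4/80, was at most 6.70. Of 4 plasma cell markers 3 were tested and 1 was lower by limma, Jchain, the joining chain of IgA (log2 fold change -2.65 ± 0.64 SE, adjusted p = 0.0175). Of 6 general leukocyte markers and 7 tested markers of T cells and innate lymphoid cells 0 passed. Of 9 epithelial markers 1 was lower, Slc26a3, and of 7 tested stromal markers 1 was lower, Col3a1, against 8.75% of all genes tested. The part of these cell types in the class II values was not tested.

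Of the 10 class II genes 8 lie together on chromosome 17 between 34092340 and 34316674 (GRCm38), the class II region, which held 13 tested genes. The 5 others were Brd2, which encodes a bromodomain protein, and 4 genes of the class I antigen pathway, the immunoproteasome subunits Psmb8 and Psmb9 and the peptide transporter chains Tap1 and Tap2. Of the 13, 1 passed the test, Psmb8, against 16.9% of all genes tested. It was at 343 ± 116 (SD, n = 5) in ApcMin/+ mice against 722 ± 268 (SD, n = 4) with p16cis/cis (log2 fold change 1.10 ± 0.31 SE, limma adjusted p = 0.0317), without overlap, as were 16.2% of all genes tested. Psmb9, which lies between H2-DMb1 and Tap1, had a log2 fold change of 0.45 ± 0.22 (SE, limma adjusted p = 0.174), and Tap1 had 0.42 ± 0.30 (SE, limma adjusted p = 0.347). Tap2 and Brd2 were at -0.25 and 0.25 and did not pass.

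The genes whose log2 levels were most like the mean of the 10 class II genes over the 9 mice were ranked among 14400 other tested genes. This mean was not scaled by gene, so genes with a wide spread weighed more. On the log2 scale the SD among ApcMin/+ mice was 2.88 for H2-Ob and 0.56 for H2-DMb1. The highest r was that of Pax5 (0.973), the transcription factor of B cell identity, followed by Siglecg (0.970), Parp9 (0.970), Ebf1 (0.965) and Sdc3 (0.961). Blk (0.954), Iglc3 (0.952), Trim35 (0.951) and Btla (0.948) were also among the first 10. Pax5, Ebf1 and Blk are B cell genes, Iglc3 encodes an immunoglobulin light chain constant region, and Pax5 and Blk were also among the 10 B cell markers. Pax5 ranged from 1.27 to 110 normalized counts, and Ebf1 and Sdc3 reached at most 33.1 and 16.5. Parp9 and Trim35, which were not among the B cell markers, held more, at 666 to 1555 and 180 to 397.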

How the data were processed

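RNA-seq of colonic mucosa from 9 mice was analyzed, each mouse being 1 replicate. The authors sequenced on BGISEQ-500, aligned with BOWTIE2, estimated gene levels with RSEM and deposited 1 table of signal values, gene counts divided by a size factor per mouse as DESeq2 makes them. Tool versions and genome build were not given in the sources used here, and GENCODE M21 held 54079 of the identifiers without their versions. All positive values (100%) were whole reads to within 0.01 after division by the smallest positive value of the column. A count test had been planned. Since the values are normalized, limma 3.58.1 (R 4.3.3, trended variances) was run on log2(value + 1) over the 14410 genes that reached 10 in 4 or more mice. Genotype was the sole term, and p-values were adjusted by Benjamini-Hochberg. Calls needed an adjusted p under 0.05 and, where said, a fold change over 2.

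Tests of the recovered reads in edgeR 4.0.16 and in DESeq2 1.42.0, TMM scaling, a pseudocount of 0.1, no filter, sex, females only, the replicate number as a block and leaving out each mouse were alternatives. The mitochondrial share as a covariate and subtraction of sex means from correlations were added after seeing the data. For single values, exact permutation tests ran over all splits of the mice into 5 and 4, and for correlations over all pairings. On simulated counts, 91% of 200 genes changed by 2 on the log2 scale were called, and 1.62% of the calls were unchanged genes. Genes were named if they belonged to the 10 class II genes, passed the test or were at 0 within a gene list, lay between the outer class II genes on chromosome 17, or were among the 10 most correlated with the class II mean. The class II genes and the lists were chosen with earlier results of these data known. Other list genes, such as Socs1 and Adgre1, were named after their values were seen. Some of the 30 relations and 1 of the 10 most correlated genes are not reported here.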

Additional observations from a re-analysis of the deposited data

Results flagged for a closer look

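Of 52 groups of 4 or 5 mice checked, 7 held a mouse whose gap to the nearest other exceeded Dixon's 95% critical value, where chance gives about 1 in 20 groups. H2-Aa stood apart in ApcMin/+; p16cis/cis replicate 3, at a normalized count of 832 against 147 to 242 in the other mice of the genotype. The share of H2-Oa in the reads on H2-Oa and H2-Ob was 100% in replicate 4 of both genotypes, against at most 21.7% and 25% in the other mice, and rested on 1 read in each. ApcMin/+ replicate 4 was low in 3 mean log2 levels. Its T cell and innate lymphoid markers were at 4.48 against 6.73 to 7.34, its stromal and vessel markers at 2.54 against 5.29 to 5.79, and its genes of the IFN-γ axis at 9.86 against 10.2 to 10.3. The mean log2 level of the class II pathway list was 10.01 in ApcMin/+ replicate 5 against 10.10 to 10.12.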

How the results depend on the processing

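No class II gene reached the adjusted threshold in the main test or under any alternative other than DESeq2, which called 1 gene (H2-DMb2), and the removal of single mice, which gave 0 to 3 genes (3 without ApcMin/+ replicate 4, namely H2-DMb2, H2-Oa and H2-Ob). Over all genes, 501 calls became 331 with sex as a covariate, 286 in females only and 0 with the mitochondrial share as a covariate in limma, where 798 genes had an unadjusted p under 0.05. That share does not overlap between the genotypes, so share and genotype cannot be told apart. Leaving out single mice gave 281 calls (without ApcMin/+; p16cis/cis replicate 4) to 755 (without ApcMin/+ replicate 4), with 309 without ApcMin/+ replicate 3. The replicate block gave 473 calls and no class II gene. Same-numbered mice are different animals with a mean correlation of their deviations of 0.02, and they were not treated as pairs.

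Signs of genes that never passed the test reversed in some settings. With the mitochondrial share as a covariate, the log2 fold change of H2-Aa was 0.81, of H2-Eb1 0.39 and of Ciita 0.23. The median log2 fold change of the class II genes was -0.79 to 0.09 without single mice, -0.12 with the replicate block and 0.60 with the mitochondrial share as a covariate. Leaving out single mice moved the log2 fold change of H2-Aa between -0.94 (without ApcMin/+; p16cis/cis replicate 3) and -0.11 (without ApcMin/+; p16cis/cis replicate 4) and of H2-DMb1 between 0.12 and 0.79 (without the same mice), of H2-Ab1 between -0.23 and 0.69, of Cd74 between -0.21 and 0.78, of H2-DMa between -0.20 and 0.43, of H2-Eb1 between -0.81 and 0.011 and of Ciita between -0.98 and 0.18. Of the last 5 genes, the lower ends of the first 3 came without ApcMin/+; p16cis/cis replicate 3, the lower ends of the last 2 without ApcMin/+ replicate 4, and all 5 upper ends without ApcMin/+; p16cis/cis replicate 4. The H2-Oa share differed by -13.2 percentage points without ApcMin/+; p16cis/cis replicate 4 and by 22.6 without ApcMin/+ replicate 4. H2-DMb1, H2-DMb2, H2-Oa and H2-Ob kept their direction in all 18 alternatives. Leaving out single mice moved the log2 fold change of H2-DMb2 between -2.42 and -1.49. That of H2-Oa moved between -1.96 and -0.99, and that of H2-Ob between -3.18 and -1.03. The lower ends of these 3 genes came without ApcMin/+ replicate 4. Reads limit H2-Oa and H2-Ob, where several mice held 0 to 6.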
